A study of Mus musculus with 28 samples.

Results

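The 9 genes described here carry lipid between and within brain cells: the apolipoproteins Apoe, Clu and Apod, the membrane exporters Abca1 and Abcg1, the lipoprotein enzymes Lcat and Lpl, and the fatty acid binding proteins Fabp5 and Fabp7. They were named as a group by their role, with earlier results of these data known, and taken from the 53342 gene identifiers that 3 tables of read counts share, and were followed through every group of those tables. RNA came from the cerebral cortex of mice on the C57BL/6J strain. The conditional knockout (cKO) mice carried mGFAP-Cre and 1 gene flanked by loxP sites on both alleles (loxP/loxP), which is removed in cells where the mouse Gfap promoter has driven Cre, chiefly astrocytes. The control (Ctrl) mice were sex-matched littermates that were loxP/loxP or loxP/+ at the same gene, so floxed alleles were shared by both groups, and no Cre is listed for them. Bulk RNA-Seq compared 4 cKO with 4 Ctrl mice at postnatal day 24 (P24) and another 4 with 4 at P17, each library from 1 mouse. TRAP-Seq (translating ribosome affinity purification) compared 3 cKO with 3 Ctrl mice at P24. Each mouse gave an Input library from a part of the lysate supernatant and an IP library of RNA on EGFP/Rpl10a-tagged ribosomes. The tag is made only where mGFAP-Cre has acted, so the Ctrl TRAP-Seq mice are taken to have carried the driver, which is not listed for them. They are described like the other controls as loxP/loxP or loxP/+. With the driver, however, loxP/loxP would be the cKO genotype, and the paper calls loxP/+ with it conditional heterozygous. The genotype of these mice is therefore not settled here. They may differ from the bulk controls in Cre and in intact copies of the gene.

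In the brain, lipoprotein particles are assembled locally and not taken from blood. Astrocytes secrete apolipoproteins, transporters of the ABC family load them with cholesterol and phospholipid, Lcat esterifies the cholesterol so that the particle can mature, and receptors on neurons and glia take the particles up. Fatty acid binding proteins are small cytosolic carriers that shuttle fatty acids inside the cell, and Fabp7 is a classical marker of radial glia and immature astrocytes.

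Total counts on genes lay between 8855488 and 14575302 in bulk libraries and between 18433087 and 27242445 in TRAP-Seq libraries, and each of the 9 genes had at least 38 counts in all 28 libraries. Levels are given as CPM, the usual count per unit of sequencing depth, here scaled by TMM factors. In cKO Input replicate 1 the TMM factor was 0.866, below every other library (0.952 to 1.05). Values are compared within a table, since the 3 tables were scaled separately, and in bulk cortex fewer cells of a type and less RNA per cell cannot be told apart.

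The order of the 9 genes was taken from CPM per kb of annotated exon. In Ctrl IP, Apoe stood first with a mean of 1590 CPM per kb, above Clu (414), Fabp7 (245), Fabp5 (146), Lcat (34.0), Apod (5.04), Abca1 (1.86), Abcg1 (0.564) and Lpl (0.289). Among neighbours in this order, only Clu with Fabp7 and Fabp7 with Fabp5 overlapped over the 3 mice. In Ctrl Input the order was Apoe (104 CPM per kb), Clu (48.4), Fabp5 (21.2), Apod (10.1), Fabp7 (8.32), Abcg1 (3.52), Lcat (2.38), Lpl (0.694) and Abca1 (0.557), with overlaps between Apod and Fabp7 and between Abcg1 and Lcat. In Ctrl bulk at P24, Apoe (418 CPM per kb) and Clu (153) again led, Lpl was last (1.29), and Abca1 (4.49) stood next to last. The length used changes some places. By the longest transcript, Lpl stood above Abcg1 in IP, with overlap in Ctrl (0.736 and 0.706 CPM per kb) and without it in cKO (1.002 and 0.623 CPM per kb), so that Abcg1 was then last. The exons of Fabp5 sum to 3567 bases while its longest coding transcript has 987, and by the latter, a length chosen after seeing the data, it stood above Fabp7 in Ctrl IP (526 against 348 CPM per kb).

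**Figure D1:**
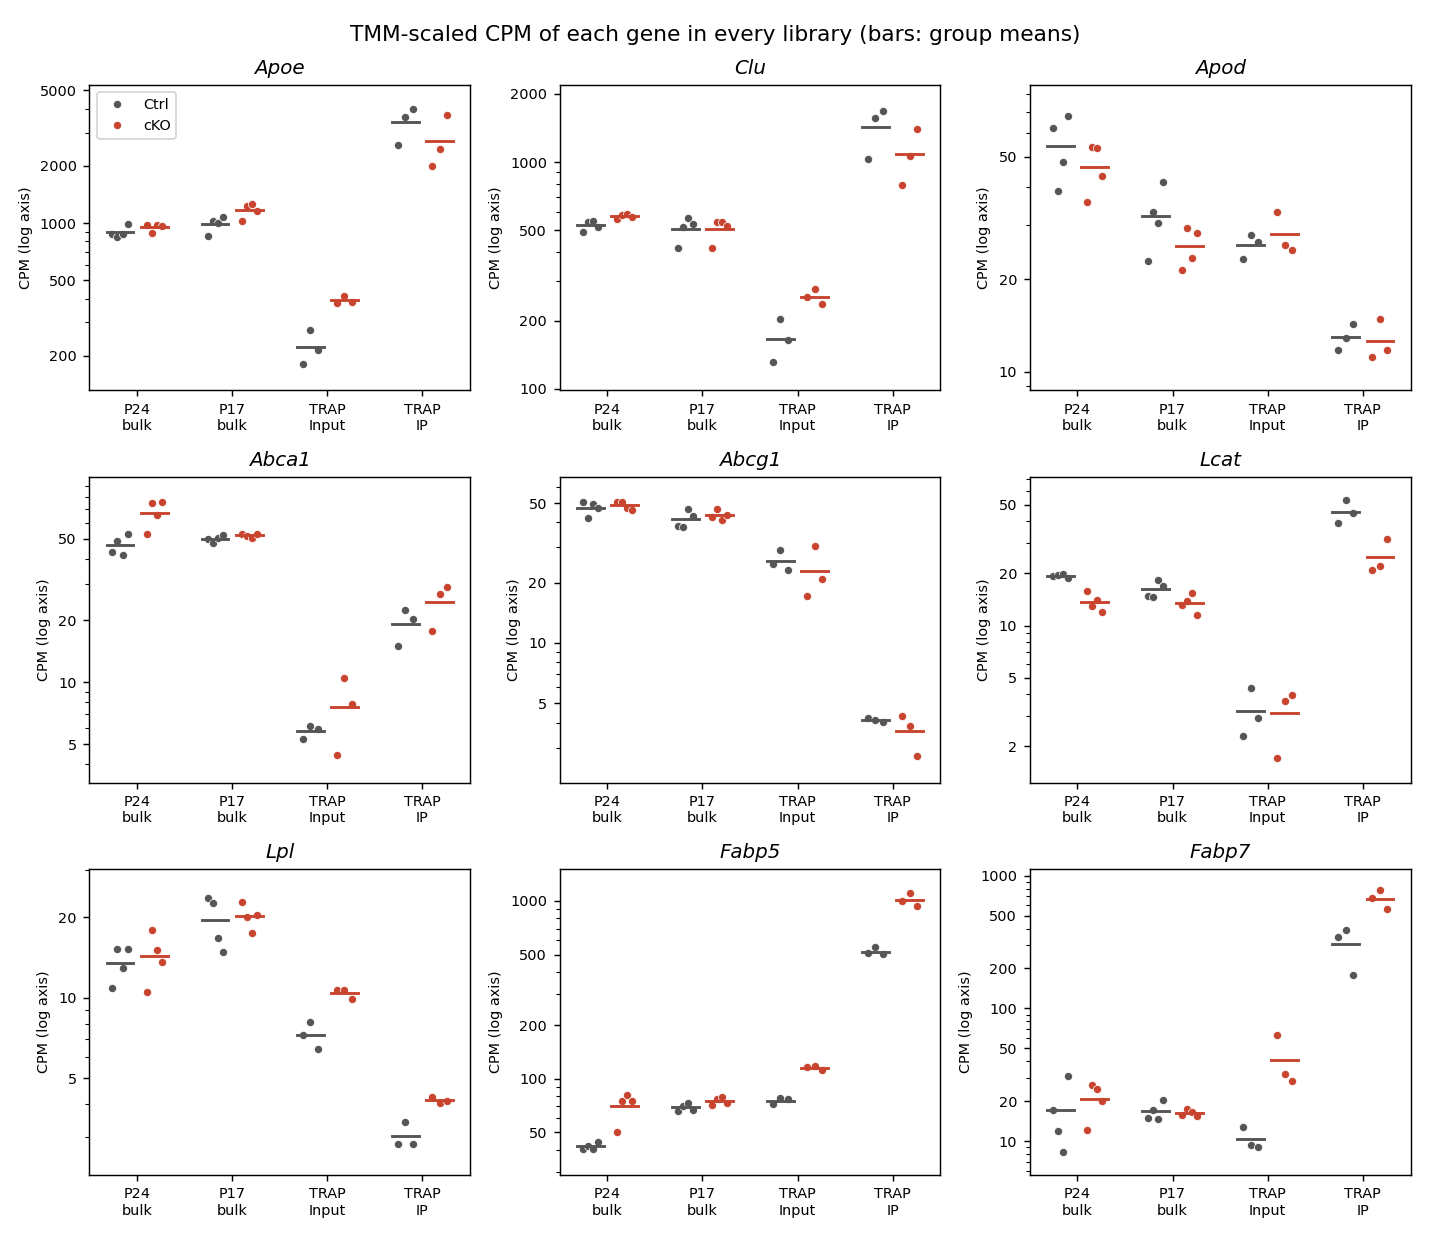
TMM-scaled CPM (log axis) of the 9 genes in every library, with 1 point per mouse and a bar at the group mean, Ctrl in grey and cKO in red, for P24 bulk, P17 bulk, TRAP Input and TRAP IP. Fabp5 separates cKO from Ctrl in P24 bulk, Input and IP, Lcat in P24 bulk and IP, and Apod, Abcg1 and Lpl are lower in IP than in Input.

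The first comparison asked how far the RNA of these genes sat on tagged ribosomes, by setting IP against Input within a genotype (edgeR quasi-likelihood test, Benjamini–Hochberg adjusted over all genes tested). The Input and IP libraries of a mouse entered this test as independent, and a fit with the mouse as a block was run as an alternative. In Ctrl mice 6 of the 9 were higher in IP and 3 were lower. Fabp7 had the largest ratio, with a log2 fold change of 4.82 ± 0.28 (SE, n = 3 mice per fraction), followed by Apoe (3.89 ± 0.20), Lcat (3.81 ± 0.20), Clu (3.06 ± 0.20), Fabp5 (2.74 ± 0.09) and Abca1 (1.70 ± 0.16). Abcg1 (-2.68 ± 0.13), Lpl (-1.31 ± 0.17) and Apod (-1.04 ± 0.12) were depleted from IP, so their RNA was not enriched on tagged ribosomes. How it was shared among cell types was not measured. All 9 passed the test, against a background of 71.0% of the 24385 genes tested (35.3% higher and 35.7% lower), so passing alone says little about them. The median log2 fold change of the 9 was 2.74, that of all genes -0.03, and that of 12 astrocyte markers, all of which were higher in IP, 3.49. Of the 10 neuron markers and of the 10 microglia markers 9 each passed as lower in IP and none as higher, and the median of either list was -1.73.

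In cKO mice the same 6 genes were higher and the same 3 lower in IP, and again 9 of 9 passed, where 56.3% of 24011 genes did (27.8% higher and 28.5% lower). The log2 fold changes were 4.04 ± 0.31 for Fabp7, 3.12 ± 0.16 for Fabp5, 2.96 ± 0.33 for Lcat, 2.78 ± 0.24 for Apoe, 2.08 ± 0.23 for Clu and 1.68 ± 0.33 for Abca1, and -2.68 ± 0.28, -1.35 ± 0.17 and -1.15 ± 0.18 for Abcg1, Lpl and Apod. Ratios in single mice paired IP and Input by library number. For Apoe the log2 ratio of IP to Input ran from 3.73 to 4.21 in single Ctrl mice and from 2.39 to 3.27 in cKO mice. For Clu it ran from 2.95 to 3.35 and from 1.64 to 2.57. The ratios of both genes were lower in every cKO mouse than in any Ctrl mouse, but the test of the difference between genotypes, the interaction of fraction and genotype, did not pass for either (edgeR, Apoe -1.11 ± 0.31, adjusted p = 0.234 and over all alternatives 0.0283 to 0.51, and Clu -0.98 ± 0.31, adjusted p = 0.336). The 12 astrocyte markers were all lower by this measure, with a median of -0.79 against -0.03 over all genes and none past the test, and their part in the values of Apoe and Clu was not tested. For Fabp5 the ratio separated the genotypes the other way, from 2.70 to 2.82 in Ctrl mice and from 3.07 to 3.23 in cKO mice (interaction 0.39 ± 0.16, edgeR adjusted p = 0.5). None of the 9 passed this test in edgeR or in DESeq2 with low counts filtered, with 3 at an unadjusted p under 0.05 (Apoe, Clu and Fabp5), as were 2252 of all genes. Of 25768 genes 0.0582% passed it, 10 higher and 5 lower, and that split became 5 and 5 with RLE factors and 5 and 7 with library size alone.

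**Figure D2:**
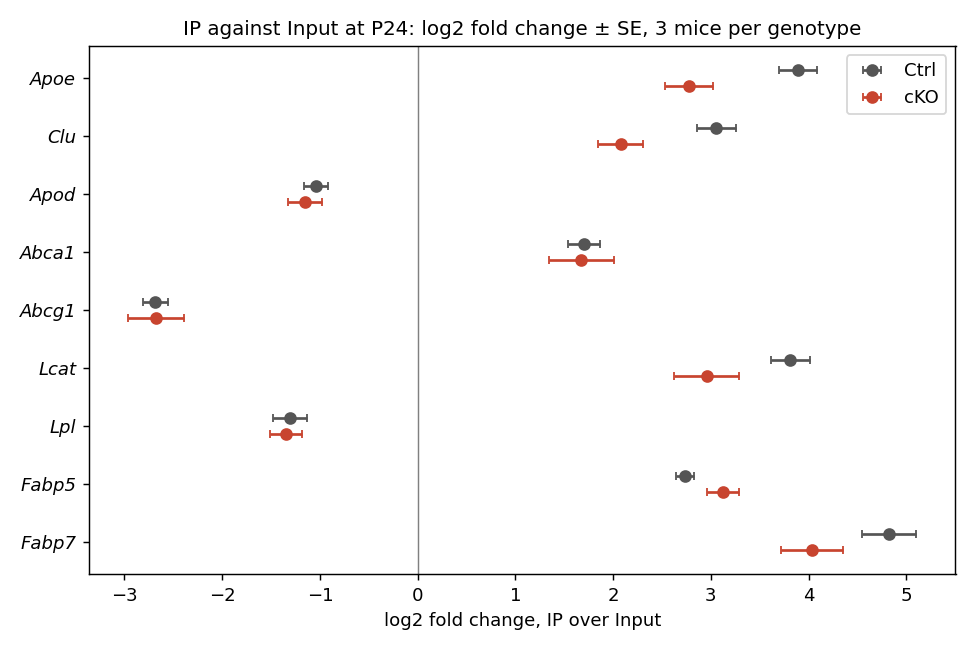
Log2 fold change of IP over Input with its SE for each gene (3 mice per genotype, Ctrl grey, cKO red), where values right of 0 are higher in IP. Abcg1, Lpl and Apod lie left of 0 in both genotypes and the other 6 to the right, with Apoe and Clu less far to the right in cKO.

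The central question was how these transcripts differed between cKO and Ctrl mice. On tagged ribosomes at P24, Fabp5 rose 1.99-fold and Fabp7 2.23-fold, and Lcat fell by 1.81-fold. In bulk cortex of the same age Fabp5 rose 1.69-fold, Abca1 rose 1.44-fold and Lcat fell by 1.41-fold. At P17 and in TRAP Input none of the 9 passed the edgeR test, where 0.0943% and 0.109% of all genes did. In IP 3 of the 9 thus passed, 2 higher and 1 lower, while 20.0% of the 23864 genes tested did (11.6% higher and 8.42% lower). In P24 bulk 3 of 9 passed, 2 higher and 1 lower, against 1.72% of 22494 genes (1.26% and 0.462%). The median log2 fold change of the 9 was -0.02 in IP, where the median of all genes was -0.01, and 0.09 in P24 bulk, where it was near 0. With library size alone in place of TMM the calls over all genes in IP split into 2002 higher and 3529 lower instead of 2772 and 2010, and the median of all genes moved from -0.01 to -0.13. The direction of none of the 9 turned under another scaling in the comparisons of cKO with Ctrl.

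The same-numbered cKO and Ctrl libraries of the IP fraction deviated together, with correlations of 0.157 to 0.269. The labels name no pairing of genotypes, and same-numbered Input libraries of these mice gave -0.0543 to 0.157. A fit that blocked on the replicate number passed 6 of the 9 in IP, and 28.2% of all genes. The 3 added were Apoe (log2 fold change -0.32, adjusted p = 0.0209; over all alternatives 0.0209 to 0.794), Clu (-0.38, adjusted p = 0.00585; 0.00585 to 0.631) and Abca1 (0.36, adjusted p = 0.0194; 0.0194 to 0.525).

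**Figure D3:**
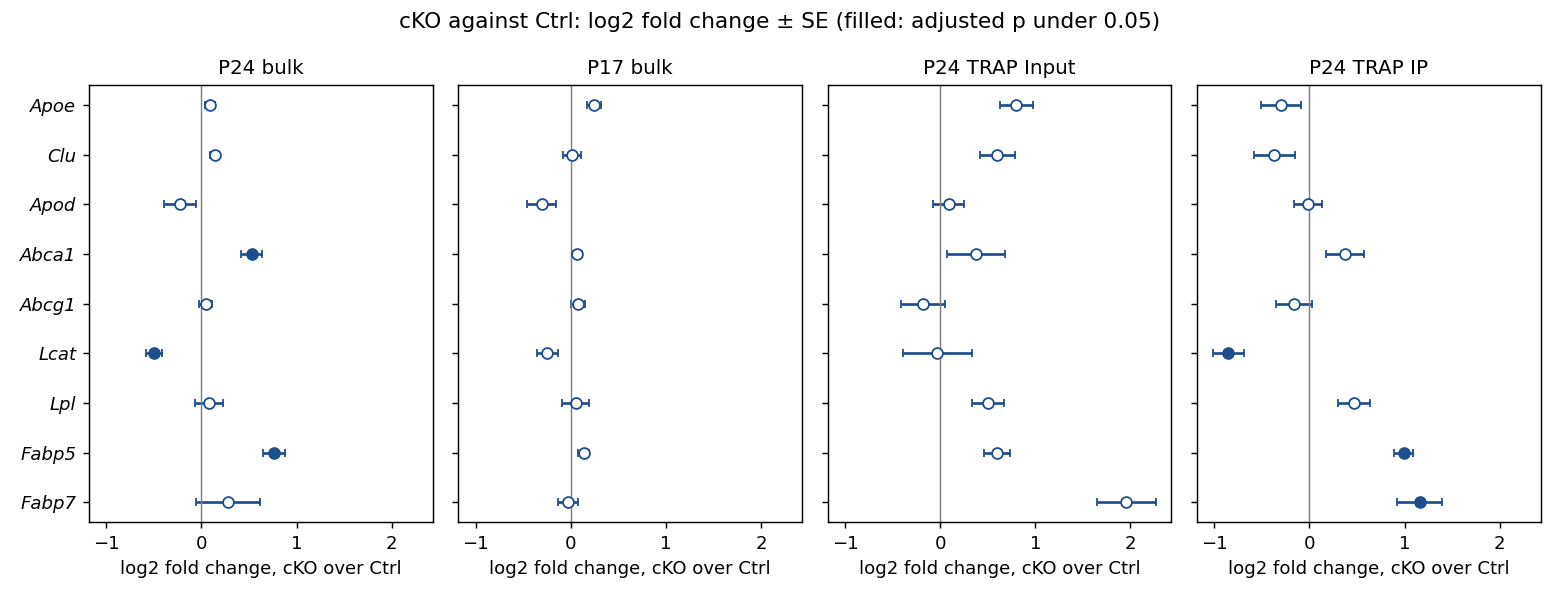
Log2 fold change of cKO over Ctrl with its SE in the 4 comparisons (4 against 4 mice in bulk, 3 against 3 in TRAP), with filled points where the adjusted p was under 0.05. Filled points are Abca1, Lcat and Fabp5 in P24 bulk and Lcat, Fabp5 and Fabp7 in TRAP IP, and none in P17 bulk or TRAP Input.

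Markers of cell types moved in the same libraries. In IP 5 of 12 astrocyte markers passed the test (Gfap higher, Slc1a2, Slc1a3, Gjb6 and Slc4a4 lower), and their summed CPM overlapped between groups. With the replicate block 9 of the 12 passed, 2 higher and 7 lower. The 7 fibroblast and leptomeningeal markers summed to 72.5 to 92.6 CPM in Ctrl IP and 151 to 219 CPM in cKO IP, and of the 5 tested Igfbp2 and Ptgds were higher and Col1a1 lower. The 10 microglia markers summed to 130 to 155 CPM in Ctrl IP and 142 to 259 CPM in cKO IP, with C1qb among those that were higher. Of the 10 neuron markers 2 passed in IP, which is 20% beside 20.0% of all genes. Both were lower, Syp by a log2 fold change of -0.435 and Tubb3 by -0.577. The sums of the neuron list overlapped, at 2618 to 3126 CPM in Ctrl IP and 2573 to 2703 CPM in cKO IP. In P24 bulk 8 of 12 astrocyte markers passed (4 in each direction, Gfap by a log2 fold change of 2.51) and Igfbp2, of the fibroblast and leptomeningeal list, was higher (1.25, adjusted p = 0.00584), while no marker of neurons, microglia or oligodendrocytes passed. No marker was at 0 in all libraries of any group. The part of these shifts in the results for the 9 genes, and for the other lipid genes described below, was not tested.

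Among the apolipoproteins no difference between genotypes passed the edgeR test as fitted without the block, and Apoe passed in some alternatives. Apoe (ENSMUSG00000002985, GRCm38 chromosome 7 from 19696109 to 19699188, minus strand, 4 exons in its longest transcript) encodes apolipoprotein E, the main protein of lipoproteins secreted by astrocytes. In IP its CPM was 2588, 3631 and 3982 in Ctrl replicates 1 to 3 and 2002, 2463 and 3696 in the cKO replicates, so the groups overlapped and replicate 1 was lowest in both (log2 fold change -0.30 ± 0.21, adjusted p = 0.363). Without cKO IP replicate 3 it was -0.58 and passed (adjusted p = 0.0395). In Input it was 180, 274 and 214 CPM in Ctrl and 381, 413 and 383 CPM in cKO. Every cKO Input library was above every Ctrl one, but the difference did not pass the test in edgeR (log2 fold change 0.80 ± 0.17, adjusted p = 0.292, over all alternatives 0.0165 to 0.998), while it did with the likelihood ratio test (adjusted p = 0.0217) and in DESeq2 (adjusted p = 0.0165). In P24 bulk it was 872, 847, 875 and 985 CPM in Ctrl and 976, 885, 974 and 969 in cKO (0.09 ± 0.05, adjusted p = 0.513).

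At P17 Apoe was 858, 1022, 1006 and 1076 CPM in Ctrl and 1021, 1229, 1255 and 1157 CPM in cKO, overlapping in 1 cKO library. The log2 fold change of 0.24 ± 0.07 had an adjusted p of 0.684 in edgeR, and of 0.00284 once the replicate number was blocked (0.0476 with no filter, and over all alternatives 0.00284 to 1). Same-numbered libraries deviated together at P17, which was taken as pairing. With the block Apoe was the only member of the 9 to pass, against 0.514% of all genes.

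Clu (ENSMUSG00000022037, chromosome 14 from 65968483 to 65981547, plus strand, 9 exons) encodes clusterin, also called apolipoprotein J, a chaperone carried on lipoproteins. Its CPM in IP was 1033, 1567 and 1674 in Ctrl and 790, 1062 and 1404 in cKO, with replicate 1 again lowest in both groups (log2 fold change -0.37 ± 0.21, adjusted p = 0.253). In P24 bulk the 4 Ctrl values of 492, 546, 548 and 516 CPM lay below the 4 cKO values of 561, 581, 591 and 572 CPM. The exact two-sided permutation p was 0.0286, the smallest that 4 against 4 allows, but the log2 fold change was only 0.14 ± 0.04 and its edgeR adjusted p over all genes 0.176. In Input Clu was 131, 203 and 164 CPM in Ctrl and 254, 276 and 236 CPM in cKO, without overlap (0.60 ± 0.18, edgeR adjusted p = 0.806). In P17 bulk the groups ran over nearly the same range, 419 to 564 CPM and 418 to 547 CPM.

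Apod (ENSMUSG00000022548, chromosome 16 from 31296192 to 31314808, minus strand, 6 exons) encodes apolipoprotein D, a lipocalin that binds small lipids. It overlapped between genotypes everywhere: 38.8 to 68.1 CPM in Ctrl and 35.6 to 53.9 in cKO in P24 bulk, 23.0 to 41.4 and 21.5 to 29.3 in P17 bulk, 23.4 to 27.96 and 24.9 to 33.2 in Input, and 11.8 to 14.3 and 11.2 to 14.9 in IP. Its log2 fold changes lay between -0.30 ± 0.15 in P17 bulk and 0.09 ± 0.16 in Input. It was the only one of the 3 apolipoproteins with a lower CPM in IP than in Input.

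The pair of exporters differed. Abca1 (ENSMUSG00000015243, chromosome 4 from 53030787 to 53159895, minus strand, 50 exons) encodes the transporter that hands cholesterol and phospholipid to lipid-poor apolipoproteins, and is a textbook target of the liver X receptors. In P24 bulk its CPM was 43.2, 48.7, 41.6 and 52.6 in Ctrl and 52.5, 75.0, 65.4 and 75.3 in cKO. Only cKO replicate 1 reached into the Ctrl range (log2 fold change 0.53 ± 0.11, edgeR adjusted p = 0.0334). The call was lost, with adjusted p between 0.0815 and 0.123, when any of cKO replicates 2, 3 and 4 or Ctrl replicates 1, 2 and 3 was left out, and without both replicate 1 libraries, a choice made after seeing the data, the log2 fold change was 0.59 (adjusted p = 0.0016). In IP it was 14.98, 22.6 and 20.3 CPM in Ctrl and 17.7, 27.0 and 29.0 CPM in cKO (0.37 ± 0.20, edgeR adjusted p = 0.208). Without cKO IP replicate 1 it was 0.59 and passed (adjusted p = 0.0292).

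At P17 the 4 Ctrl values of Abca1 were 47.9 to 52.4 CPM and the 4 cKO values 50.4 to 53.0 CPM, a log2 fold change of 0.06 ± 0.05. The interaction of age and genotype came to 0.47 ± 0.13 for Abca1 and 0.62 ± 0.15 for Fabp5, with adjusted p of 0.452 and 0.234 in edgeR. Of the 9 genes none passed this test in edgeR, while 0.0470% of 23395 genes did. At an unadjusted p under 0.05 were 2 of the 9 (Abca1 and Fabp5) and 1479 of all genes. DESeq2 passed 1 of the 9 and 54 of all genes. Without P24 cKO replicate 1 both Abca1 and Fabp5 passed in edgeR, with adjusted p of 0.0109 for Abca1 and 9.52e-05 for Fabp5. In Input Abca1 was 5.27, 6.15 and 5.90 CPM in Ctrl and more spread in cKO, at 4.40, 10.5 and 7.80 CPM.

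The upstream sequence of Abca1 is shown because its window before the start holds several short motifs at once. Windows of 300 bases around transcript starts were taken from RefSeq (GRCm38.p6), where Abca1, Lcat, Fabp7, Apod and Apoe matched. Windows of Clu, Abcg1, Lpl and Fabp5 were not used here. The motifs searched on both strands were TATAAA (in 13.6% of 32851 such windows), CCAAT (37.4%), GGGCGG (35.7%), CACGTG (7.15%), the direct repeat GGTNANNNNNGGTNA (0.718%) and TGGCNNNNNGCC (5.84%), and the last can overlap a CCAAT on the other strand. Printed are the bases that lie outside every annotated exon, 5′ to 3′ on the strand of the gene, with motif matches in capitals. In Abca1 (chr4:53159896-53160145, minus strand) the capitals mark a GGGCGG on either side of the only CACGTG, then the direct repeat on the opposite strand, and last, nearest the start, the TATAAA box.
Abca1: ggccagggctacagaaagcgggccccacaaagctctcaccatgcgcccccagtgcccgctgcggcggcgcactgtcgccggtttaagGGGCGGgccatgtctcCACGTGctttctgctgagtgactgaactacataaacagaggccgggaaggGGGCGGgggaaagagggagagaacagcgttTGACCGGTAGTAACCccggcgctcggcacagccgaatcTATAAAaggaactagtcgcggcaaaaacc
A match of letters is a description of the sequence and not evidence of binding.

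Abcg1 (ENSMUSG00000024030, chromosome 17 from 31057675 to 31117988, plus strand, 15 exons) encodes a transporter that passes cholesterol on to particles already formed. Its CPM was 50.6, 42.1, 49.7 and 47.0 in Ctrl and 50.3, 50.6, 47.5 and 46.3 in cKO at P24, and 37.9 to 46.6 and 41.1 to 46.5 at P17, overlapping fully. In IP it was 4.20, 4.13 and 4.02 CPM in Ctrl and 4.34, 3.84 and 2.73 CPM in cKO, against 23.1 to 29.0 and 17.2 to 30.4 CPM in Input. Its log2 fold changes between genotypes lay between -0.18 ± 0.23 in Input and 0.08 ± 0.07 in P17 bulk. At P24 in bulk, where Abca1 rose, the log2 fold change of Abcg1 was 0.04 ± 0.07 (adjusted p = 0.85).

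Lcat was the only member called lower in cKO than in Ctrl by the edgeR test as fitted without the block. Of the 12 astrocyte markers 4 passed as lower in IP (log2 fold change from -0.95 for Slc1a3 to -0.71 for Slc1a2) and 1 as higher. In P24 bulk 4 passed as lower (from -0.41 for Slc1a2 and S100b to -0.32 for Slc4a4) and 4 as higher. Their part in the fall of Lcat was not tested. Lcat (ENSMUSG00000035237, chromosome 8 from 105939551 to 105943382, minus strand, 6 exons) encodes lecithin-cholesterol acyltransferase, which turns the free cholesterol of a nascent particle into cholesteryl ester. In P24 bulk its CPM was 19.2, 19.7, 19.9 and 18.8 in Ctrl and 15.9, 12.9, 14.0 and 11.9 in cKO, so every cKO library was below every Ctrl library (log2 fold change -0.50 ± 0.09, edgeR adjusted p = 0.0124; exact two-sided permutation p = 0.0286, the smallest possible). In IP it was 39.2, 52.9 and 44.7 CPM in Ctrl and 20.9, 22.0 and 31.5 CPM in cKO, again without overlap (-0.85 ± 0.16, edgeR adjusted p = 0.00481; exact permutation p = 0.1, the smallest 3 against 3 allows). The IP call was lost only when all TRAP-Seq libraries shared one fit (adjusted p = 0.0602; over all alternatives 2.58e-07 to 0.0602).

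At P17 Lcat was 14.9, 14.6, 18.3 and 16.9 CPM in Ctrl and 13.2, 13.9, 15.4 and 11.5 CPM in cKO. The lower cKO values overlapped the Ctrl range, and the log2 fold change of -0.25 ± 0.11 did not pass the test (edgeR adjusted p = 1). In Input the groups overlapped (2.28, 4.37 and 2.92 CPM in Ctrl, 1.72, 3.64 and 3.99 CPM in cKO; -0.03 ± 0.36). The bases upstream of Lcat (chr8:105943403-105943589, minus strand) are shown for comparison with those of Abca1. Further upstream the window enters an exon of the neighbouring gene Slc12a4, and the only match is a CCAAT read on the opposite strand.
Lcat: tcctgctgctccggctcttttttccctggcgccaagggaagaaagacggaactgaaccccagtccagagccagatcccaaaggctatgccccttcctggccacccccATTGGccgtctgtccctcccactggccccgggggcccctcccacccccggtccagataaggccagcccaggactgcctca

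Lpl (ENSMUSG00000015568, chromosome 8 from 68880491 to 68907448, plus strand, 10 exons) encodes lipoprotein lipase, which releases fatty acids from lipoprotein triglyceride. By CPM per kb of annotated exon, though not per kb of the longest transcript, it was the lowest of the 9 in IP, and its CPM was 2.84, 3.41 and 2.84 CPM in Ctrl and 4.25, 4.01 and 4.10 CPM in cKO. All 3 cKO libraries were above all 3 Ctrl libraries, but the difference did not pass (log2 fold change 0.47 ± 0.17, edgeR adjusted p = 0.0706). Input showed a like difference, 7.27, 8.14 and 6.40 CPM against 10.7, 10.7 and 9.88 CPM (0.50 ± 0.17, edgeR adjusted p = 0.812). In bulk the groups overlapped at both ages, at 10.8 to 15.3 CPM in Ctrl and 10.5 to 18.0 in cKO at P24, and 14.9 to 23.7 and 17.5 to 22.8 at P17. Beside the higher Lpl values, the microglia markers summed to 216 to 246 CPM in Ctrl Input and 230 to 319 CPM in cKO Input, and their part in them was not tested.

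The fatty acid binding proteins rose on tagged ribosomes. Fabp5 (ENSMUSG00000027533, chromosome 3 from 10012548 to 10016607, plus strand, 4 exons in the longest coding transcript) encodes the epidermal type of fatty acid binding protein. In IP its CPM was 509, 548 and 500 in Ctrl and 998, 1111 and 938 in cKO, with a narrow spread in each group and no overlap (log2 fold change 0.99 ± 0.10, edgeR adjusted p = 0.000187). In P24 bulk it was 40.4, 42.1, 40.1 and 44.1 CPM in Ctrl and 50.3, 75.4, 81.3 and 74.8 CPM in cKO. Replicate 1 was the lowest cKO library but still above all Ctrl libraries (0.76 ± 0.12, edgeR adjusted p = 0.00626). Both calls held in all 13 alternatives for IP and all 15 for bulk.

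In Input Fabp5 was 72.0, 77.7 and 76.9 CPM in Ctrl and 116, 119 and 112 CPM in cKO, well apart, yet its log2 fold change of 0.60 ± 0.13 had an edgeR adjusted p of 0.318. Without cKO Input replicate 1 it was 0.61 and passed (adjusted p = 0.0332, over all alternatives 0.0114 to 0.998). At P17 it was 65.9, 70.5, 73.2 and 66.7 CPM in Ctrl and 71.3, 77.3, 79.5 and 73.6 CPM in cKO, a log2 fold change of 0.14 ± 0.06 (edgeR adjusted p = 1). In Ctrl the level at P17 lay above the 40.1 to 44.1 CPM of P24, while in cKO the P24 range of 50.3 to 81.3 CPM covered that of P17. The tables of the ages were scaled separately, so these are set side by side only.

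Reads of Fabp5 may be shared with copies of it. Of the 9 genes it alone had annotated transcripts of other genes at 90% identity or more over at least 300 bases: the processed pseudogenes Gm6166 (98.3% over 409 bases), Gm14328 (97.3% over 408), Fabp5l2 (94.1% over 405), Gm13998 (94.0% over 336) and Gm6100 (93.6% over 408). Their summed CPM came to between 122% and 133% of that of Fabp5 in P24 bulk libraries and between 31.9% and 46.6% in IP libraries. Gm6166 alone had 3356 to 4728 counts in Ctrl IP and 5255 to 8454 in cKO IP. The copies moved with the gene: Gm6166 and Gm14328 had log2 fold changes of 0.77 ± 0.16 and 0.99 ± 0.10 in IP (adjusted p = 0.00769 and 0.000191) and 0.74 ± 0.11 and 0.83 ± 0.13 in P24 bulk (adjusted p = 0.00576 and 0.00701). With all copies added to Fabp5, the sum was 731 to 739 CPM in Ctrl IP and 1315 to 1481 in cKO IP, and 89.5 to 99.9 and 114 to 189 CPM in P24 bulk. The log2 ratio of the group means was then 0.92 in IP and 0.76 in bulk, close to the 0.97 and 0.76 of Fabp5 alone. How reads that fit several places were counted is not given in the sources used here, so the level of Fabp5 is uncertain by these amounts.

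Fabp7 (ENSMUSG00000019874, chromosome 10 from 57784881 to 57788450, plus strand, 3 exons) encodes the brain type of fatty acid binding protein. In IP its CPM was 348, 392 and 178 in Ctrl and 681, 774 and 560 in cKO, with Ctrl replicate 3 far below the other Ctrl libraries and no overlap between genotypes (log2 fold change 1.16 ± 0.24, edgeR adjusted p = 0.00646). The call held in all 13 alternatives, and the log2 fold change was 1.26 (adjusted p = 0.028) without both replicate 1 libraries. In Input Fabp7 had the largest difference of the 9, at 12.9, 9.30 and 9.02 CPM in Ctrl and 62.8, 32.2 and 28.4 CPM in cKO, with cKO replicate 1 far above the rest. The log2 fold change of 1.95 ± 0.31 missed the threshold (edgeR adjusted p = 0.0935), but it passed without cKO Input replicate 1 (1.53, adjusted p = 0.00468) or replicate 3 (2.15, adjusted p = 0.0404), and over all alternatives the adjusted p ran from 4.67e-07 to 0.769.

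In bulk cortex Fabp7 did not separate the genotypes. Its CPM was 17.1, 11.9, 8.26 and 31.2 in Ctrl and 12.1, 26.4, 24.8 and 20.1 in cKO at P24, the widest spread among the 9 (0.28 ± 0.34, adjusted p = 0.793). At P17 all 8 libraries lay between 14.8 and 20.4 CPM. The bases upstream of Fabp7 (chr10:57784673-57784880, plus strand) carry 2 CCAAT read on the opposite strand, the second of which overlaps TGGCNNNNNGCC, so both show as 1 run of capitals.
Fabp7: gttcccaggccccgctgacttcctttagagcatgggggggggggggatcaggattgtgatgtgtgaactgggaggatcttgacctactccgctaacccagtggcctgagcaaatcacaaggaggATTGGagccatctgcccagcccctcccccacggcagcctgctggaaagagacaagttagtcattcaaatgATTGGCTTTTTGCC

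Input as a whole gave few calls. None of the 9 passed in edgeR, while 5 were at an unadjusted p under 0.05 (Apoe, Clu, Lpl, Fabp5 and Fabp7) and DESeq2 passed 3 (Apoe, Fabp5 and Fabp7). Of the 23828 genes tested 0.109% passed in edgeR, 960 were at an unadjusted p under 0.05 and DESeq2 passed 127. All 5 had every cKO library above every Ctrl library, which 3 against 3 cannot take below an exact permutation p of 0.1. Since the 5 were picked by their p in these same libraries, this adds no support. How many of all genes separate so was not counted. The median log2 fold change of the 9 in Input was 0.50, and that of all genes 0.01. The 12 astrocyte markers had a median of 0.43 in the same libraries, and their summed CPM was 1040 to 1198 in Ctrl and 1617 to 2054 in cKO, without overlap. The 7 fibroblast and leptomeningeal markers summed to 89.2 to 113 CPM and 119 to 272 CPM. Neuron markers overlapped, at 6032 to 6940 and 6206 to 6633 CPM. In P24 bulk, unlike in Input, the summed astrocyte markers overlapped too, at 4066 to 4693 CPM in Ctrl and 4307 to 4489 CPM in cKO. The part of the higher astrocyte markers in the values of the 9 genes in Input was not tested. At P17 none of the 9 passed in edgeR or DESeq2, while 0.0943% of 21201 genes passed in edgeR and DESeq2 passed 41. At an unadjusted p under 0.05 in edgeR were 3 of the 9 (Apoe, Lcat and Fabp5) and 847 of all genes.

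The wider machinery was read from 7 lists of 110 genes in all. In IP 17 of the 85 that passed the filter on low counts were called, 8 higher and 9 lower, which is 20.0% and equal to the share among all genes. The lists therefore did not stand apart in number of calls, and the genes named are single results that say nothing of the pathway as a whole. With the replicate block 27 of the 85 were called, 11 higher and 16 lower, which is 31.8% beside 28.2% of all genes. In P24 bulk 3 of 81 were called: Mgll (0.39 ± 0.07) and Npc2 (0.43 ± 0.06) were higher, and Lrp4 (-0.37 ± 0.06), a receptor of the LDL receptor family, was lower. Mgll and Npc2 were higher in IP too. At P17 1 of 79 was called, the lysolipid transporter Mfsd2a (0.42 ± 0.06, adjusted p = 0.0132), named after its value was seen. In Input 0 of 80 were called in edgeR, with 10 at an unadjusted p under 0.05 and 5 passing in DESeq2.

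Of 13 tested lipoprotein receptors and their partners 1 changed in IP, Scarb1, the scavenger receptor for high-density lipoprotein (log2 fold change 0.53 ± 0.16, 6.13 to 7.35 CPM in Ctrl and 8.12 to 11.1 in cKO). Of 9 other apolipoproteins 3 changed. Apoc1, a small exchangeable apolipoprotein whose gene neighbours Apoe, fell by 2.18-fold, from 4.14 to 5.13 CPM in Ctrl to 1.76 to 2.36 CPM in cKO. Apool (0.62 ± 0.15) and Apoo (0.44 ± 0.10) rose, and despite their names both are known as parts of the complex that shapes mitochondrial cristae. None of 14 other ABC lipid transporters passed in IP, and 1 did, lower, with the block.

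Of 11 lipases and remodelling genes 3 changed in IP. Mgll, monoacylglycerol lipase, rose (0.74 ± 0.10, 624 to 697 CPM in Ctrl and 998 to 1177 in cKO). Angptl4, a secreted inhibitor of lipoprotein lipase, fell by 2.79-fold (3.59 to 6.62 CPM and 1.41 to 2.50 CPM), and Pnpla2, the adipose triglyceride lipase, fell by 1.47-fold. Among 13 other fatty acid binding and uptake genes the acyl-CoA synthetases Acsl5 (0.52 ± 0.11) and Acsl4 (0.38 ± 0.11) rose and Acsl6 (-0.60 ± 0.15) fell. Of 11 nuclear receptors and sterol factors, Rxra, the partner of the liver X receptors (-0.67 ± 0.12), and Mylip, a ubiquitin ligase that degrades the LDL receptor (-0.55 ± 0.14), fell, and none rose. Among 14 genes of intracellular cholesterol handling and storage, Plin4 (1.31 ± 0.25), a lipid droplet coat protein, and Npc2 (0.61 ± 0.12), a lysosomal cholesterol carrier, rose. Plin3 (-0.46 ± 0.11), Osbp (-0.37 ± 0.11) and Cyp46a1 (-0.36 ± 0.11), the cholesterol 24-hydroxylase of neurons, fell. For each of the 17 genes the 3 cKO libraries did not overlap the 3 Ctrl libraries. Since the genes were chosen by the test on these same libraries, this adds no support. The share of all genes without overlap was not counted. In Ctrl IP against Input, Apoc1 (log2 fold change 4.76), Angptl4 (2.96) and Plin3 (2.31) were strongly higher in IP, while Cyp46a1 (-2.40), Scarb1 (-1.36) and Osbp (-1.19) were lower.

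**Figure D4:**
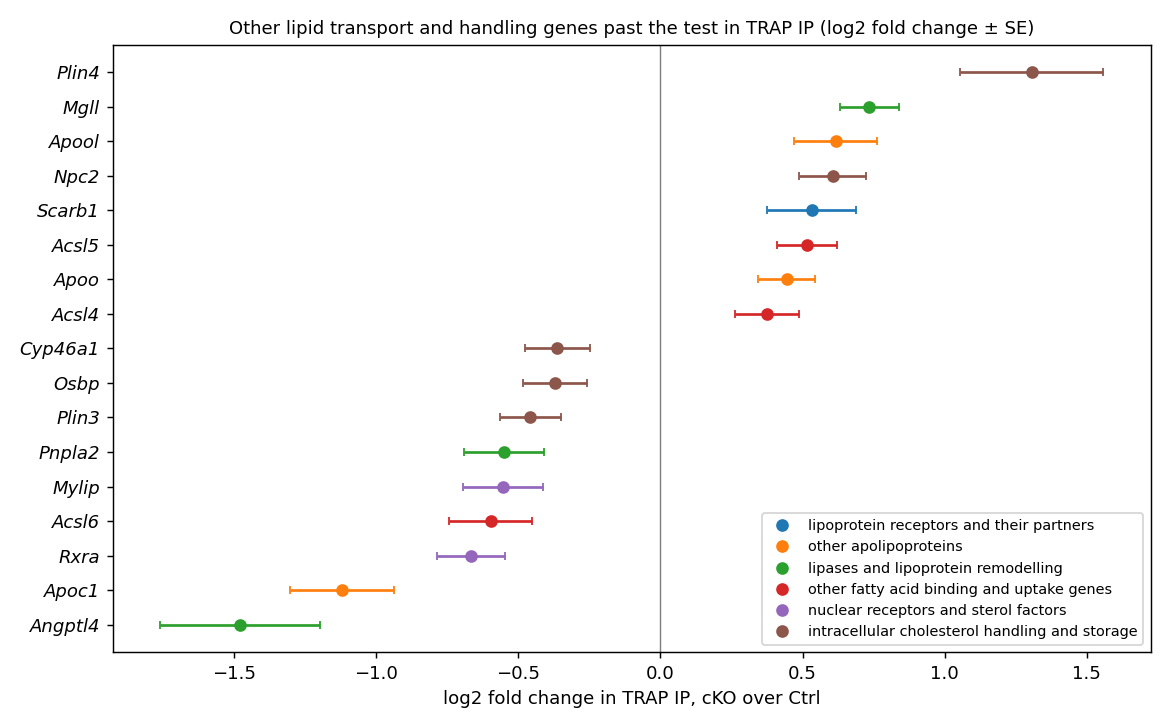
Log2 fold change of cKO over Ctrl in TRAP IP with its SE (3 against 3 mice) for the 17 listed genes past the test, coloured by list. The values run from -1.48 for Angptl4 to 1.31 for Plin4, with 8 genes above 0 and 9 below.

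Patterns across all 28 libraries were compared by Pearson's r of log2 CPM, each table centred on its own mean, over 16360 genes with a mean log2 CPM of at least 1 in every table. This is a description with no p, since libraries are shared and the step between IP and Input carries most of the variation. Apoe and Clu were closest among the 9 (r = 0.993), followed by Fabp5 and Fabp7 (0.956) and Apoe and Lcat (0.945). Over all genes, Apoe was most like Htra1 (0.995) and Gpr37l1 (0.994), Clu was most like Htra1 (0.994) and then Apoe, and Lcat was most like Plpp3 and Slc1a2 (both 0.988). Abca1 was most like Scd2 (0.976) and Scd1 (0.975), Abcg1 like Disp2 and Faim2 (both 0.991), Lpl like Gcnt2 (0.945) and Fcrls (0.924), and Apod like Stard10 (0.916) and 1700037H04Rik (0.904). Fabp7 was most like S100a16 (0.977) and the pseudogene Gm21399 (0.975). Fabp5 was most like Cfap53 (0.997) and its own copy Fabp5l2 (0.993), and the copy Gm14328 lies within the annotated span of Cfap53 on the other strand.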

How the data were processed

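Cortical RNA of Ctrl and cKO mice was measured in 16 bulk and 12 TRAP-Seq libraries, 1 mouse per library or per pair of Input and IP. The authors deposited raw read counts per Ensembl gene in 3 tables, from reads mapped with STAR in Galaxy to mm10. Bulk RNA was reverse-transcribed with an oligo-dT primer, and TRAP-Seq RNA was selected on oligo-dT beads for NEBNext Ultra libraries. The counting tool, strand setting and annotation are not given in the sources used here, so antisense or overlapping reads could not be told apart. Samples were grouped by their labels, and the ages of the bulk tables rest on the tables' names, since their column names repeat. No column of other samples was present (0). The gene removed in cKO mice and its levels are not reported here.

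Counts were fitted with edgeR 4.0.16 (R 4.3.3), using TMM factors, filterByExpr (minimum count 10, total 15, proportion 0.7) and the quasi-likelihood test, two-sided, with Benjamini–Hochberg adjustment over all genes tested and a threshold of 0.05. Only the groups compared entered a fit, and each interaction took all bulk or all TRAP-Seq libraries. The SE was the absolute log2 fold change divided by the square root of F. Values are CPM scaled by TMM factors. Exact permutation tests used mean CPM. Between genotypes or ages each library is 1 mouse, so p-values measure the spread between mice. Where Input and IP entered the same fit, the libraries of a mouse were taken as independent, except with the block. Total counts per library limit precision, and a gene at 0 could have had up to 3 counts, a floor that none of the 9 genes reached. The script was tested on simulated data.

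Identifiers were matched to GENCODE M21 on GRCm38 (53237 of 53342, with 105 unmatched), and 1 identifier cut short was dropped. Near copies were searched with BLAST+ 2.17.0+. Promoter windows came from RefSeq, and 250 bases before and 50 after each start were searched. The members and gene lists were chosen with earlier results of these data known. Named genes were the 9, listed genes past the threshold in IP or P24 bulk (at most 4 per direction and list), and the 2 genes most like each member. Likeness used log2(CPM + 0.05).

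Replicate numbers are shared between genotypes. Same-numbered libraries correlated in their deviations from the group mean at 0.232 to 0.535 in P17 bulk and 0.157 to 0.269 in IP, which was taken as pairing. IP and Input of 1 number were taken from the labels as the same mouse. Between these fractions, same-numbered libraries correlated at 0.0437 to 0.168 in Ctrl and -0.179 to 0.195 in cKO. Differently numbered ones reached 0.0148 in Ctrl and 0.329 in cKO, so in cKO the values do not bear out the numbering. Alternatives were RLE factors, library size alone, no filter, the likelihood ratio test, DESeq2 1.42.0, the block, 1 fit for all libraries, each library left out, and, added after seeing the data, both replicate 1 libraries left out and a coding transcript length.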

Additional observations from a re-analysis of the deposited data

Results flagged for a closer look

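Among 36 groups of 4 bulk libraries examined for the 9 genes, 1 held a library far from the others. The CPM of Apoe in cKO replicate 2 at P24 was 885, while the other 3 cKO libraries lay between 969 and 976, and the gap made up 0.92 of the whole range. Chance gives such a library in about 1 of 20 groups. With it left out, the log2 fold change of Apoe in P24 bulk still did not pass the test.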

How the results depend on the processing

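The 3 calls among the 9 genes in P24 bulk, the 3 in IP and all 9 in either comparison of IP with Input kept their direction in every alternative run. They also passed in every one, except Abca1 in P24 bulk and Lcat in IP as given above. Other counts of the 9 moved, and the causes were not tested. At P17 the count was 1 with no filter and 1 with the replicate block in place of 0, and in IP it was 6 with the block in place of 3, and 4 without cKO replicate 3 (Apoe added) or cKO replicate 1 (Abca1 added). In Input it was 1 with no filter, 2 with the likelihood ratio test, 3 with DESeq2, 2 with all libraries in 1 fit and 0 to 2 with a library left out, in place of 0. For the interaction of age and genotype it was 1 with no filter, 1 with DESeq2, 2 with the replicate block (Abca1 and Fabp5, both adjusted p = 0.0444) and 0 to 2 with a library left out, and for that of fraction and genotype 1 with no filter.

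Log2 fold changes near 0 changed sign, none of them past the test. With a library left out they ran from -0.01 to 0.08 for Abcg1 and -0.04 to 0.20 for Lpl in P24 bulk, from -0.07 to 0.10 for Clu, -0.05 to 0.16 for Lpl and -0.09 to 0.07 for Fabp7 in P17 bulk, from -0.15 to 0.10 for Apod and -0.27 to 0.01 for Abcg1 in IP, and from -0.03 to 0.16 for Apod and -0.25 to 0.27 for Lcat in Input. For the interaction of age and genotype they ran from -0.07 to 0.22 for Apod, -0.10 to 0.01 for Abcg1 and -0.10 to 0.15 for Lpl, and for that of fraction and genotype from -0.26 to 0.01 for Apod, -0.29 to 0.29 for Abca1, -0.17 to 0.28 for Abcg1 and -0.14 to 0.05 for Lpl. The latter was 0.06 for Abca1 with the block, and -0.07 with library size alone and -0.02 with no filter for Abcg1. Apod in IP was 0.00 without both replicate 1 libraries.

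Over all genes, P24 bulk gave 388 calls, 619 with no filter, 619 with the likelihood ratio test and 598 with DESeq2. P17 bulk gave 20, and 55, 61 and 41 in that order, with 109 under the block. IP gave 4782 and, with all libraries in 1 fit, 1684. Input gave 26, and 112, 137 and 127 in that order, with 127 in 1 fit and 8 under the block. The age interaction gave 11, and 62, 52 and 54, with 55 under the block. The fraction interaction gave 15, and 189 (79 higher, 110 lower), 219 (93, 126) and 284 (99, 185), with 10 under RLE factors and 6 under the block; library size alone moved its median over all genes from -0.03 to -0.10. Same-numbered libraries correlated at 0.075 to 0.292 in P24 bulk and -0.0543 to 0.157 in Input. Differently numbered libraries reached 0.261 in P24 bulk and 0.0679 in Input. Pairing was not taken there, and these values neither show nor exclude it. The labels name no pairing of genotypes in any experiment. The block gave 410 calls in P24 bulk. Beyond the results named, the block changed no call of the 9 genes. With 3 mice per group no permutation test can pass, and depth was least for Lcat in Input, where 1 cKO library had 38 counts.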
